A study of Rattus norvegicus with 6 samples.

Results

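The lactate shuttle of the testis was followed through 10 genes: the lactate dehydrogenase genes Ldha, Ldhb, Ldhc and Ldhd, the monocarboxylate transporter genes Slc16a1 (MCT1), Slc16a3 (MCT4), Slc16a7 (MCT2) and Slc16a8 (MCT3), and the transporter chaperone genes Bsg (basigin) and Emb (embigin). They were chosen by symbol for their known roles, with earlier results of these data known. All 10 were found among the 35291 genes of the expression table. RNA-Seq libraries of whole testis were compared, 3 from diabetic (DM) and 3 from non-diabetic (ND) Sprague-Dawley rats. DM rats were fed a high-fat diet for a month, then given 1 intraperitoneal dose of streptozotocin (STZ), a toxin of the insulin-producing beta cells, at 35 mg/kg, and their testes were taken 8 weeks later. ND rats received citrate buffer without STZ, and the diet of the ND rats is not given in the sources used here. Whether the groups differ by STZ alone or by diet as well is therefore not known here. The rats carried no transgene, and the strain is outbred. The labels give the 3 libraries of a group as replicates without saying whether RNA of several rats was pooled. The p-values therefore measure the spread between these libraries. Where values are given per rat or per testis below, each stands for 1 library.

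Developing germ cells beyond the blood-testis barrier are known to rely on lactate from Sertoli cells, the somatic nurse cells of the seminiferous tubule. Sertoli cells take up glucose, convert it through glycolysis to pyruvate, reduce pyruvate to lactate with lactate dehydrogenase A and release the lactate through monocarboxylate transporters, among which MCT4 is the typical exporter of glycolytic cells. Germ cells import lactate through MCT1 and MCT2 and oxidise it back to pyruvate with the germ cell enzyme LDHC, and basigin and embigin carry the transporters to the cell surface.

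Values are FPKM, fragments scaled by the length of the transcript and by the size of the library, so the levels of genes can be set side by side. The table gives no read counts, so the depth of the libraries is unknown, and the FPKM of a library summed to 453304 to 478211. Of the marker sets, the Leydig cell markers were the set whose summed levels did not overlap between the groups, with 36.0 to 64.8 FPKM in DM and 109 to 145 FPKM in ND. The other sums overlapped, for Sertoli cell markers (404 to 426 FPKM in DM and 355 to 435 in ND), spermatogonia (69.8 to 81.1 and 66.3 to 69.8), spermatocytes (436 to 484 and 438 to 481), round spermatids (628 to 735 and 618 to 742), elongating spermatids (15788 to 16816 and 14734 to 17151), peritubular and smooth muscle cells (70.3 to 76.3 and 71.7 to 91.2), macrophages (25.6 to 30.8 and 30.4 to 31.9), endothelium (5.39 to 6.05 and 5.83 to 7.09) and red blood cells (33.9 to 74.1 and 40.8 to 67.9). In whole testis, fewer cells of a type and less RNA per cell cannot be told apart. FPKM are scaled to the library, so overlapping sums do not show that the number of cells in a testis was unchanged. The paper reports a lower testicular index in its DM rats, and reduced spermatogenesis on histology. The most abundant gene of the Sertoli cell list, Clu, was at 210 to 272 FPKM in every library. That of the elongating spermatid list, the protamine gene Prm1, was at 3227 to 4072 FPKM. Levels within a list varied, and Amh and Rhox5 of the Sertoli cell list were low, at 0.0743 to 0.479 and 0.124 to 1.22 FPKM.

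The proximal promoters of 3 members are given for these reasons. Slc16a3 is the member with the largest difference between the groups among the 9 tested, Ldhc is the most abundant member, and Ldha is its neighbour on chromosome 1 and the next in level. Each sequence is the RefSeq window of 250 bases before to 50 bases after 1 annotated start, in build GRCr8, 5′ to 3′ on the plus strand, at chr10:106712078-106712377 for Slc16a3, chr1:106507842-106508141 for Ldha and chr1:106522745-106523044 for Ldhc. Capitals mark matches, on either strand, to the hypoxia response core ACGTG, the cAMP response element TGACGTCA, the AP-1 site TGANTCA and the GC box GGGCGG.
Slc16a3: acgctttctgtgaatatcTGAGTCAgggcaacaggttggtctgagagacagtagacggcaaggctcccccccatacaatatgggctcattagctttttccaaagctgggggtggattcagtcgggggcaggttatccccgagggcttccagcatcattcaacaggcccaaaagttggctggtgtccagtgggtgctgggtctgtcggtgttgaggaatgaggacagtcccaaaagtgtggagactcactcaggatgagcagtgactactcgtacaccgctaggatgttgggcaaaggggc
Ldha: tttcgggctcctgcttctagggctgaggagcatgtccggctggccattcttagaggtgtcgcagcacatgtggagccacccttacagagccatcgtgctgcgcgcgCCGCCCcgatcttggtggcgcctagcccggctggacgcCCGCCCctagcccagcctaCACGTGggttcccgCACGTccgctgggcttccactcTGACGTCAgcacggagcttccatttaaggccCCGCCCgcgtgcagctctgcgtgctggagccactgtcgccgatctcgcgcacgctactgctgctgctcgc
Ldhc: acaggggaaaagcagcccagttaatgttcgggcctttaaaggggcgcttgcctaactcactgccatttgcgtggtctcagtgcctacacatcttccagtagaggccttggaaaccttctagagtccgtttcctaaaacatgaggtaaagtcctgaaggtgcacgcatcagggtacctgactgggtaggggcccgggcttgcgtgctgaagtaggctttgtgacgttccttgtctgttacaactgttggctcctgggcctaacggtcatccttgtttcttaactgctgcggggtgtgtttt
The Slc16a3 window held 1 AP-1 match, at position -232 from the start, and no match to the other motifs. The Ldha window held 3 hypoxia response core matches, of which a pair overlaps on opposite strands, 1 cAMP response element match and 3 GC box matches. The Ldhc window held none of the 4 motifs. The start used for Ldhc lies 855 bases inside the outer end of the annotated gene, while those of Slc16a3 and Ldha lie at it. The bases before the outer end of Ldhc are outside this window, so it does not show whether they hold a motif. Of 33469 RefSeq promoter windows of the same length, 19.3% held ACGTG, 1.83% the cAMP response element, 7.33% the AP-1 site and 33.1% the GC box. Of the 7 other members, Bsg had 4 hypoxia core matches, Slc16a1 had 3, and Slc16a7 and Ldhd 1 each, while Slc16a8 had 1 AP-1 match. GC box matches numbered 2 for Bsg and 1 each for Slc16a1, Ldhb and Emb. The starts used for Slc16a1 and Slc16a7 lie 7104 and 56597 bases inside the outer end of the gene. Those of Ldhb, Ldhd, Slc16a8, Bsg and Emb lie at it, so the counts are not from like places in each gene. A match is a description of these letters in this window, and no library here measured binding.

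Averaged over the 6 rats, the order ran from Ldhc (610 FPKM) through Ldha (351), Bsg (116), Slc16a7 (75.1), Ldhb (35.2), Emb (18.9), Slc16a1 (18.5), Slc16a3 (2.19) and Slc16a8 (0.578) to Ldhd (0.476). Ldhc stood 57th by mean FPKM of all genes in the table. For 7 of the 9 neighbouring pairs in this order, the higher gene was higher in 6 of 6 rats and the ranges did not overlap. Emb exceeded Slc16a1 in 3 of 6 rats and Slc16a8 exceeded Ldhd in 4 of 6, so these neighbours did not differ beyond their spread.

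**Figure D1:**
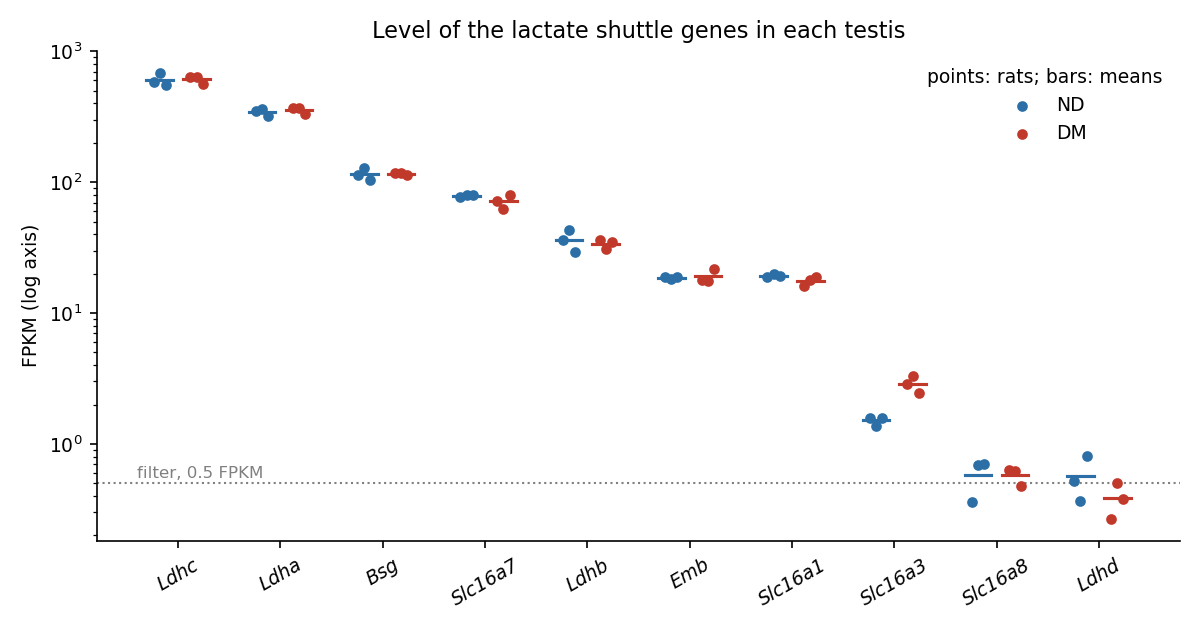
FPKM on a log axis of the 10 genes in each rat, ordered by mean level, with ND in blue and DM in red, points for rats and bars for group means (n = 3). The points of the groups lie over each other for every gene but Slc16a3, and Ldhc at 610 FPKM and Ldhd at 0.476 FPKM mark the ends of the range.

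The DM and ND rats were compared by limma, two-sided, on log2(FPKM + 0.1), over the 20338 genes that averaged 0.5 FPKM or more, and p-values were adjusted by Benjamini-Hochberg over all of them. Fold changes are on this log2 scale, which understates those of low genes. Of the 10 members, 9 passed this filter, and Ldhd at 0.476 FPKM did not. Of the 9, 1 had an unadjusted p below 0.05 (Slc16a3, higher in DM), while over all genes tested 7.46% did, 2.47% higher in DM and 4.99% lower. No member had an adjusted p below 0.05 in limma, against 0.0344% of all genes tested. For 1 of the 9 members the DM and ND ranges were apart, against 13.0% of the genes tested. The median log2 fold change was 0.02 over the 9 members, with 6 higher and 3 lower in DM, and -0.02 over all genes tested. With 9 members, 1 gene is the smallest count above 0, and nothing about the set was read from it.

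Slc16a3 encodes MCT4, the low-affinity transporter associated with lactate release. Its level was 2.89, 3.29 and 2.43 FPKM in the 3 DM rats and 1.57, 1.38 and 1.58 FPKM in the 3 ND rats. Every DM rat lay above every ND rat. The means were 2.87 ± 0.431 FPKM in DM and 1.51 ± 0.113 FPKM in ND (SD, n = 3), a ratio of 1.90. The log2 fold change was 0.88 (SE 0.16), with a 95% interval from 0.49 to 1.26, which is 1.40-fold to 2.40-fold. The unadjusted p in limma was 0.00101, the 76th lowest of the 20338 genes, and the adjusted p was 0.273, so the difference did not pass the adjustment over all genes. The two-sided exact permutation test of the mean FPKM gave p = 0.1, the smallest p that 3 against 3 allows. Over the alternative settings the adjusted p ranged from 0.0610 with protein-coding genes only to 0.684 without ND rat 2, and Slc16a3 was higher in DM in every one. Beside it, all 7 Leydig cell markers tested were lower in DM at an unadjusted p below 0.05, their median log2 fold change was -1.26, and 1 of them had an adjusted p below 0.05 in limma. Of 5 macrophage markers, 2 (Cd68 and Csf1r) were lower at that unadjusted threshold. Of 10 Sertoli cell markers tested, 1 (Inha) was lower at it and none higher. Of 7 spermatogonia markers tested, Uchl1 was higher (log2 fold change 0.34, unadjusted p = 0.00805 in limma) and Kit lower (-0.30, unadjusted p = 0.0314), and of 8 spermatocyte markers Ccna1 was higher (0.17, unadjusted p = 0.0261 in limma), all 3 without overlap and none with an adjusted p below 0.05. The round and elongating spermatid, peritubular, endothelial and red blood cell lists held no gene at that threshold. No marker list held a gene at 0 in every rat. Over all genes tested, 2.47% were higher and 4.99% lower at that threshold, and 13.0% did not overlap. The ranges were also apart for 6 Leydig cell and 2 macrophage markers, all lower in DM. Wt1 of the Sertoli cell list and Acr of the round spermatid list were apart and higher in DM (unadjusted p = 0.0646 and 0.131 in limma). The part of cell makeup in the Slc16a3 difference was not tested.

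Slc16a1 encodes MCT1, the widely expressed lactate transporter. It measured 16.0, 17.9 and 19.0 FPKM in the DM rats and 18.7, 20.0 and 19.2 FPKM in the ND rats. The ranges overlapped, with 2 of 3 DM rats below all ND rats. Slc16a1 had a log2 fold change of -0.13 (SE 0.08, 95% interval -0.32 to 0.06, adjusted p = 0.805 in limma).

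Slc16a7 encodes MCT2, the high-affinity transporter of spermatids and sperm, and was the most abundant of the 4 transporter genes in every rat. Its levels were 72.4, 61.9 and 80.1 FPKM in DM and 77.3, 79.5 and 79.4 FPKM in ND. The ND rats lay close together, with a coefficient of variation of 1.57%, and the DM rats were spread over a wider range (12.7%) that reached both lower and higher. The log2 fold change was -0.15 (SE 0.09, 95% interval -0.37 to 0.07, adjusted p = 0.809 in limma). Without DM rat 3, the highest DM value, the log2 fold change was -0.23 with an unadjusted p of 0.0271 in limma and an adjusted p of 0.590, which made Slc16a7 the second member with an unadjusted p below 0.05, and without DM rat 2 it was -0.05.

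Slc16a8, the gene of MCT3, a transporter best known from the retinal pigment epithelium, lay just above the filter. It measured 0.627, 0.617 and 0.477 FPKM in DM and 0.357, 0.692 and 0.699 FPKM in ND. The DM values lay inside the ND range, and the interval of the log2 fold change, -0.79 to 0.83, leaves a difference of either sign within reach at this level.

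**Figure D2:**
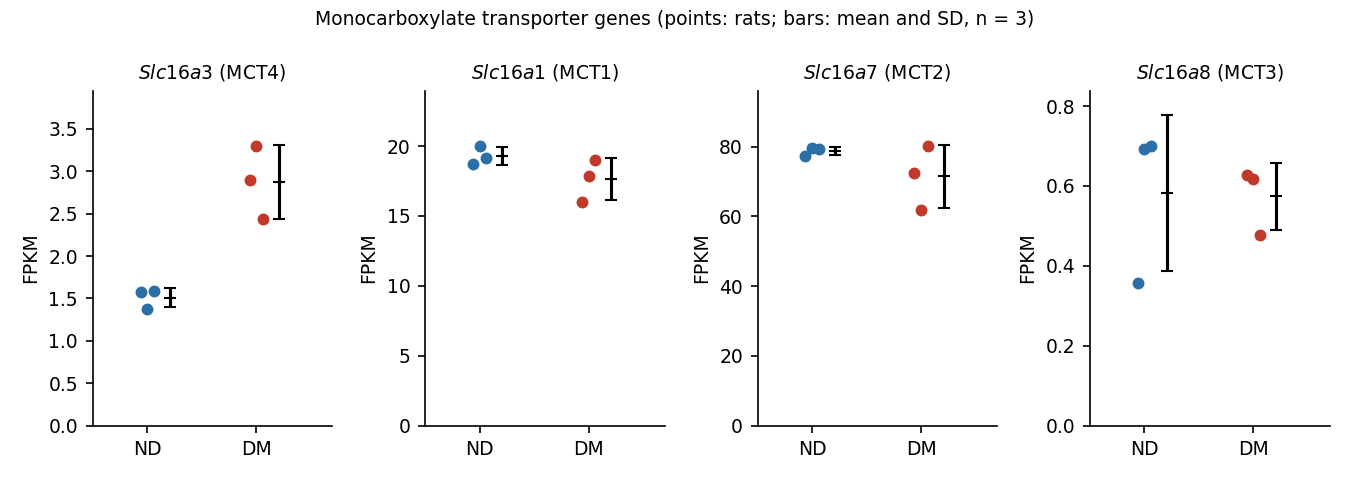
FPKM of the 4 monocarboxylate transporter genes in each rat, each panel from 0 on its own linear axis, with points for rats and black bars for the mean and SD (n = 3). Slc16a3 is at 2.43 to 3.29 FPKM in DM and 1.38 to 1.58 FPKM in ND, and the DM and ND points of the other transporter genes overlap.

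Within each testis, the 4 transporter genes summed to 83.7 to 102 FPKM in DM and 98.0 to 101.6 FPKM in ND. Slc16a7 made up 74.0% to 78.7% of that sum in DM and 78.3% to 78.9% in ND, and Slc16a1 made up 17.4% to 21.4% in DM and 19.0% to 19.7% in ND. Slc16a3 was a small share in both groups, 2.38% to 3.93% in DM and 1.36% to 1.60% in ND, without overlap. The ratio of Slc16a1 to Slc16a3 was 5.54, 5.43 and 7.81 in the DM rats and 11.9, 14.5 and 12.1 in the ND rats. It averaged 6.26 ± 1.35 in DM and 12.8 ± 1.42 in ND (SD, n = 3), a difference of -1.05 on the log2 scale, and the groups did not overlap. The ratio holds the Slc16a3 values already described and is no separate evidence. The ratio of Slc16a7 to Slc16a1 was 4.07 ± 0.542 in DM and 4.08 ± 0.0900 in ND (SD, n = 3).

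The dehydrogenases that make and use L-lactate lay close in both groups. Ldhc, the gene of the germ cell subunit, measured 636, 638 and 566 FPKM in DM and 584, 684 and 549 FPKM in ND. All DM values lay inside the ND range. Its log2 fold change was 0.02 (SE 0.09), and the 95% interval, -0.20 to 0.24, covers folds from 0.871 to 1.18.

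Ldha, the gene of the A subunit that favours lactate formation, measured 371, 369 and 330 FPKM in DM and 351, 365 and 321 FPKM in ND. The ranges overlapped, with DM rats 1 and 2 above all ND rats and DM rat 3 between the ND values. Ldha differed by a log2 fold change of 0.05 (SE 0.07, 95% interval -0.13 to 0.22, adjusted p = 0.935 in limma). A separate gene described as similar to LDH-A, RGD1562690, named after its values were seen because it can share reads with Ldha, measured 51.8 ± 3.76 FPKM in DM and 51.5 ± 2.36 FPKM in ND (SD, n = 3). Its level was 14.0% to 15.4% of that of Ldha in the same rat, and how the reads were divided between these genes was not tested.

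Ldhb, the gene of the B subunit that favours lactate oxidation, measured 36.0, 30.8 and 34.9 FPKM in DM and 36.4, 43.4 and 29.5 FPKM in ND. The DM values lay inside the wider ND range. For Ldhb the log2 fold change was -0.09 (SE 0.14, 95% interval -0.42 to 0.24, adjusted p = 0.934 in limma).

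Ldhd encodes the mitochondrial D-lactate dehydrogenase, which handles the mirror-image form of lactate, and was the lowest member. It measured 0.269, 0.507 and 0.379 FPKM in DM and 0.523, 0.366 and 0.811 FPKM in ND. The ranges overlapped. In the fit without a filter its log2 fold change was -0.43 (SE 0.36), with a 95% interval from -1.29 to 0.42 and an adjusted p of 0.873 in limma.

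The makeup of the L-lactate dehydrogenase transcripts overlapped between the groups for all 3 subunits. Ldhc made up 60.8% to 61.5% of the summed FPKM of Ldha, Ldhb and Ldhc in the DM rats and 60.1% to 62.6% in the ND rats. Ldha made up 35.4% to 35.6% in DM and 33.4% to 36.1% in ND, and Ldhb 2.97% to 3.75% in DM and 3.28% to 3.98% in ND. The ratio of Ldhc to Ldha was 1.71, 1.73 and 1.72 in the DM rats and 1.66, 1.87 and 1.71 in the ND rats. The ratio of Ldhb to Ldha was 0.0953 ± 0.0112 in DM and 0.105 ± 0.0136 in ND (SD, n = 3), with overlap.

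The chaperones lay as close. Bsg, the gene of basigin, the partner of MCT1 and MCT4, measured 118.0, 117.7 and 113.1 FPKM in DM and 114, 129 and 103 FPKM in ND. The DM values lay inside the ND range, and the log2 fold change was 0.01 (SE 0.08, 95% interval -0.19 to 0.21, adjusted p = 0.989 in limma). Emb, the gene of embigin, which can chaperone MCT2, measured 18.0, 17.4 and 21.9 FPKM in DM and 18.8, 18.2 and 18.8 FPKM in ND. DM rat 3 lay above all ND rats and the other DM rats below them. For Emb the log2 fold change was 0.03 (SE 0.10, 95% interval -0.20 to 0.26, adjusted p = 0.972 in limma). The ratio of Emb to Bsg was 0.165 ± 0.0249 in DM and 0.162 ± 0.0203 in ND (SD, n = 3).

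**Figure D3:**
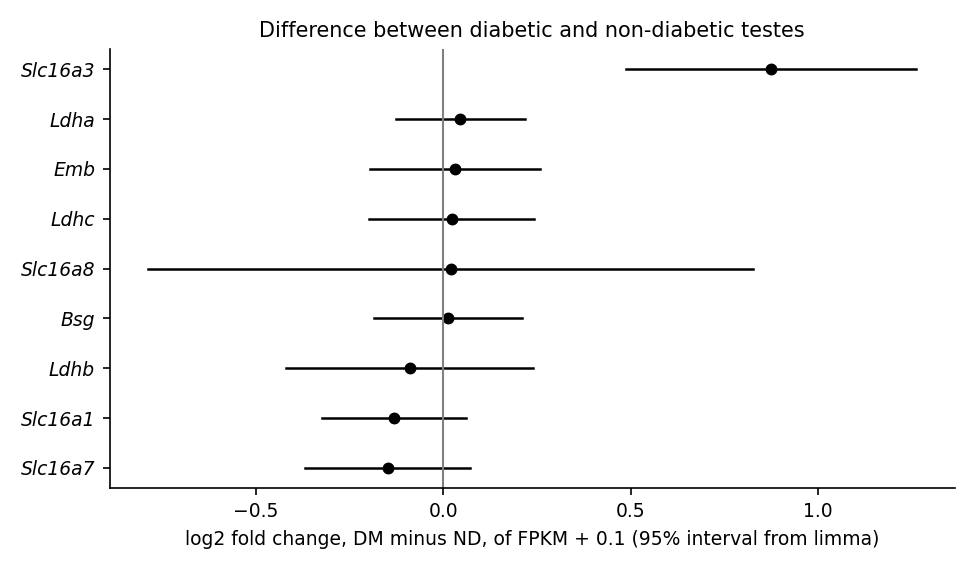
Log2 fold change, DM minus ND, of FPKM + 0.1 for the 9 members tested, as points with 95% intervals from limma. The interval of Slc16a3, 0.49 to 1.26, lies above 0, and the intervals of the other 8 members cover 0.

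**Figure D4:**
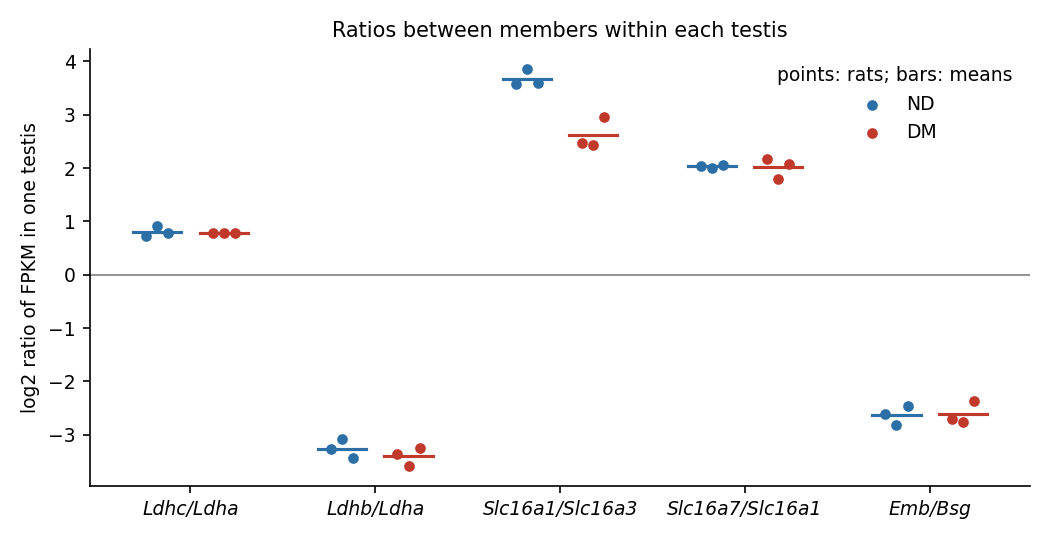
Log2 ratio of FPKM between 5 pairs of members within each testis, with points for rats and bars for group means (n = 3). The Slc16a1 to Slc16a3 ratio lies lower in every DM rat than in any ND rat, by 1.05 on the log2 scale between the means, and the other ratios overlap.

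Around the shuttle, 6 lists of genes were counted in the same fit, and none held a gene with an adjusted p below 0.05 in limma. Of the 58 genes tested in them, 6 (10.3%) had an unadjusted p below 0.05, every one lower in DM, against 7.46% of all genes tested, among which lower calls also outnumbered higher ones (4.99% against 2.47%). The ranges of 11 of the 58 genes (19%) were apart, against 13.0% of all genes tested. Counts this small near the background are no result about the lists. Every difference named here is by that unadjusted p and did not pass the adjustment.

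Of 16 genes of glucose uptake and glycolysis, 2 were lower in DM at an unadjusted p below 0.05, none was higher, 3 did not overlap, and the median log2 fold change was -0.02, beside 4.99% lower and 13.0% not overlapping among all genes tested. Pgk1, the somatic phosphoglycerate kinase, measured 9.17, 7.68 and 8.70 FPKM in DM and 11.2, 12.9 and 10.2 FPKM in ND. The groups did not overlap, and the log2 fold change was -0.42 (SE 0.12, unadjusted p = 0.00856, adjusted p = 0.488 in limma). Gpi, glucose-6-phosphate isomerase, measured 44.3, 47.2 and 45.0 FPKM in DM and 51.7, 56.6 and 50.1 FPKM in ND, without overlap, with a log2 fold change of -0.21 (SE 0.07, unadjusted p = 0.0145, adjusted p = 0.544 in limma). Near-identical retrogene copies exist for several glycolytic genes, so their FPKM are uncertain where reads could be shared. Of 6 sperm forms of glycolytic enzymes tested, none had an unadjusted p below 0.05 in either direction and the median log2 fold change was 0.01. Hk1, the hexokinase with a sperm form, had the lowest p of these (850 ± 64.5 FPKM in DM and 796 ± 29.9 in ND, SD, n = 3, unadjusted p = 0.227 in limma), followed by the sperm enolase gene Eno4 (21.7 ± 2.54 and 22.8 ± 1.02 FPKM, unadjusted p = 0.427 in limma).

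Of 10 genes of the cytosolic NADH shuttles, which return the NAD+ that lactate oxidation needs, 2 were lower at an unadjusted p below 0.05, none was higher, 4 did not overlap, and the median log2 fold change was -0.20, with 9 of 10 below 0, beside the same shares of 4.99% and 13.0% and a median of -0.02 over all genes tested. Gpd1, the cytosolic glycerol-3-phosphate dehydrogenase, measured 6.75, 5.78 and 6.42 FPKM in DM and 8.35, 8.47 and 7.29 FPKM in ND. Its groups did not overlap, and its log2 fold change was -0.34 (SE 0.10, unadjusted p = 0.0128, adjusted p = 0.535 in limma). Got2, the mitochondrial aspartate aminotransferase, measured 4.59, 4.41 and 4.90 FPKM in DM and 5.35, 6.26 and 5.71 FPKM in ND, also without overlap, with a log2 fold change of -0.31 (SE 0.10, unadjusted p = 0.0202, adjusted p = 0.581 in limma).

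Of 16 genes of pyruvate entry into mitochondria and of pyruvate dehydrogenase, 1 was lower at an unadjusted p below 0.05, none was higher, 3 did not overlap, and the median log2 fold change was -0.01, which for both counts is near the 4.99% and 13.0% of all genes tested. That gene was Pdk4, a kinase that switches pyruvate dehydrogenase off, at 0.956, 0.779 and 0.751 FPKM in DM and 1.30, 1.64 and 1.08 FPKM in ND. The lowest ND value lay above the highest DM value, and the log2 fold change was -0.62 (SE 0.23, unadjusted p = 0.0321, adjusted p = 0.636 in limma).

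Of 8 tested regulators of lactate production and sensing, 1 was lower at an unadjusted p below 0.05 and none was higher. The groups did not overlap for 1 of them, and their median was -0.05, where 1 gene is the smallest count above 0 and the shares over all genes tested were 4.99% and 13.0%. Insr, the insulin receptor, measured 1.59, 1.17 and 1.53 FPKM in DM and 1.80, 1.97 and 2.05 FPKM in ND, with a log2 fold change of -0.43 (SE 0.18, unadjusted p = 0.0484, adjusted p = 0.666 in limma). Hcar1, the lactate receptor, was among the 3 regulators below the filter, at 0.0397 to 0.0907 FPKM, and is named after its values were seen.

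Of the 11 other members of the SLC16 family and sodium-coupled monocarboxylate transporters found in the table, 3 passed the filter, none with an unadjusted p below 0.05 or without overlap, and the median log2 fold change was -0.12. The lowest p belonged to Slc16a14, an orphan transporter (0.912 ± 0.0710 FPKM in DM and 1.15 ± 0.147 in ND, SD, n = 3, unadjusted p = 0.199 in limma), and then to Slc16a4 (1.58 ± 0.220 and 1.71 ± 0.0994 FPKM, unadjusted p = 0.523 in limma). Slc16a6, named after its values were seen, measured 51.3 ± 2.50 FPKM in DM and 51.9 ± 3.07 FPKM in ND (SD, n = 3), above the mean of Slc16a1 and below that of Slc16a7. The sodium-coupled transporter gene Slc5a12, also named after its values were seen, was listed at 0 in all 6 rats.

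**Figure D5:**
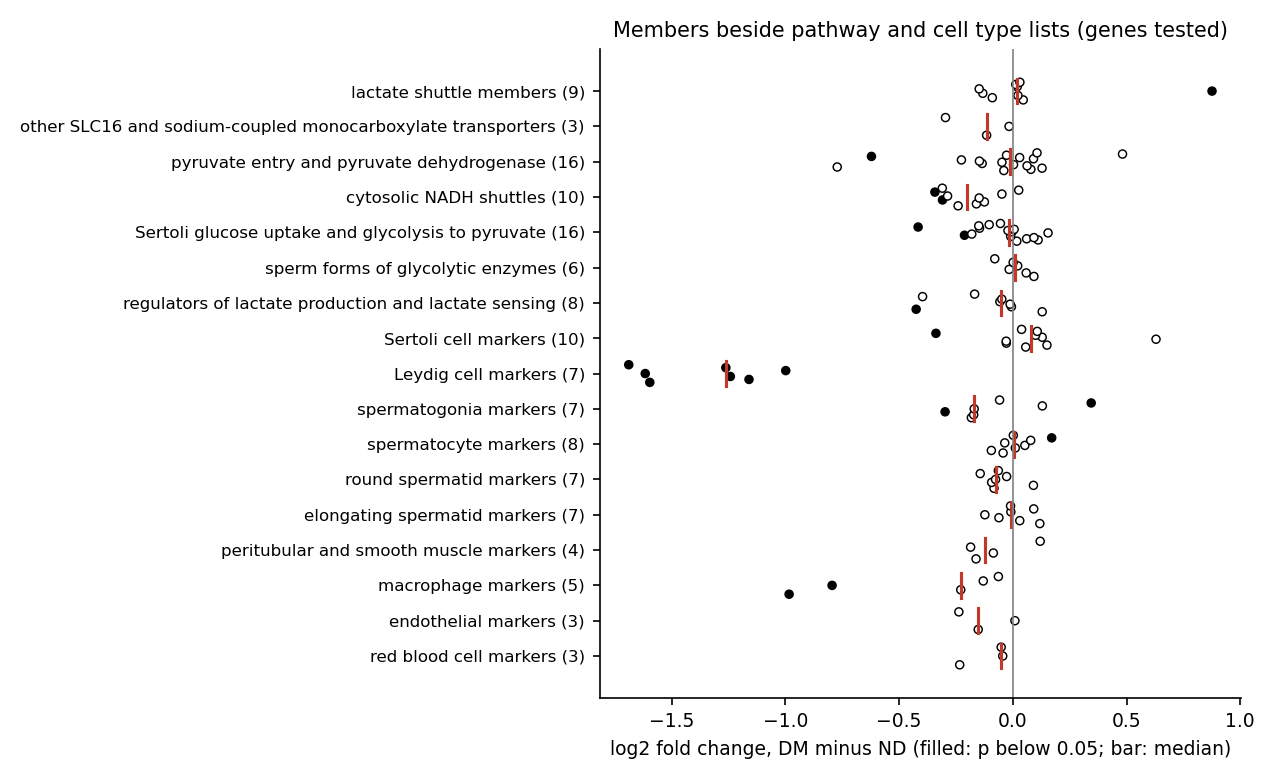
Log2 fold change, DM minus ND, of every gene tested in the members, the 6 pathway lists and the 10 marker lists, with the number tested in brackets, filled points for an unadjusted p below 0.05 and a red bar for the median. Slc16a3 is the filled point of the members at 0.88, the filled points of the pathway lists lie below 0, and the median of the 7 Leydig cell markers is -1.26.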

How the data were processed

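RNA was extracted by the authors from testis, and paired-end libraries were sequenced on an Illumina Hiseq instrument. The labels describe poly(A) selection, while the library titles name circRNA, lncRNA and mRNA. Which RNA classes the libraries held was not tested, and strand is not given in the sources used here. The authors checked reads with FastQC, screened them with BWA against rRNA, aligned them with STAR, and assembled and quantified transcripts with StringTie. What the authors deposited is 1 FPKM value per gene and library. The genome build and tool versions are not given in the sources used here. The authors screened transcripts with DESeq2, and without counts that screen was not repeated.

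Under R 4.3.3, limma 3.58.1 (lmFit, eBayes with trend) was fitted to log2(FPKM + 0.1) of the 20338 genes that averaged 0.5 FPKM or more, and two-sided p-values were adjusted by Benjamini-Hochberg over all of them. Intervals are 95%. Exact permutation tests used scipy 1.17.1 in Python 3.11.15. The fit was tested on simulated data. The members, lists and tests were chosen with earlier results of these data known. At most 4 genes of each pathway list are named, those with the lowest unadjusted p below 0.05, or the 2 with the lowest p where none is below it. Of the listed genes, Slc16a9, Aldoart1, Ldhal6b, Hsd3b1, Pecam1 and Hba-a1 matched no symbol and were not analysed here, and Pcx was matched through an older symbol. The promoter windows are RefSeq GRCr8 sequences, and all 10 members matched. Alternatives were the pseudocount, the filter, median-ratio scaling, rescaling to TPM, limma without trend or with robust eBayes, a replicate block, protein-coding genes only, symbols summed, and each rat left out. Summing Ldha with RGD1562690 was added after seeing the data. The small RNA libraries, the serum and cell experiments were not analysed here.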

Additional observations from a re-analysis of the deposited data

How the results depend on the processing

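Slc16a3 was higher in DM in all 17 alternatives, with a log2 fold change from 0.62 with a pseudocount of 1 to 0.99 without DM rat 3 and an unadjusted p in limma from 0.000246 to 0.00514. Its adjusted p ranged from 0.0610 to 0.684. With a pseudocount of 1 the difference of the Slc16a1 to Slc16a3 log2 ratio was -0.75. Slc16a1 and Slc16a7 stayed lower in DM throughout. The sign of the other small differences turned: Slc16a8 was at -0.0018 with a pseudocount of 1, and with 1 rat left out the log2 fold change ran from -0.0066 to 0.10 for Ldha, -0.23 to 0.045 for Ldhb, -0.045 to 0.11 for Ldhc, -0.25 to 0.16 for Slc16a8, -0.065 to 0.096 for Bsg and -0.069 to 0.093 for Emb. None of these had an adjusted p below 0.05 in limma in any setting, and the cause of the turns was not tested.

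Members with an unadjusted p below 0.05 numbered 1, and 1 to 2 with 1 rat left out (2 without DM rat 3). Genes of the other pathway lists at that threshold numbered 6, and 3 (without DM rat 2) to 7 with 1 rat left out. With all rats kept, the count ran from 5 (mean of at least 1 FPKM) to 9 (without the trend), with 8 after rescaling to TPM. Over all genes, 7 had an adjusted p below 0.05 in limma, against 3 with no filter, 12 without the trend, 36 with protein-coding genes only and 15 with rows of the same symbol summed, and 0 (without ND rat 3) to 14 (without ND rat 1) with 1 rat left out. The fit of protein-coding genes holds fewer genes, and the cause of these differences in count was not tested.

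The groups share replicate numbers but not animals. Deviations of same-numbered rats correlated at 0.106, 0.0153 and 0.0979, against -0.126 to 0.0318 for rats of different number. The highest values were thus of same-numbered rats, while DM rat 2 correlated best with ND rat 3. The main fit did not take the numbers as pairs, and whether they mark a shared batch was not tested. With the replicate block, 4 genes had an adjusted p below 0.05, and Slc16a3 stood at 0.88 (unadjusted p = 0.00453, adjusted p = 0.426 in limma). The block changed no call of a member.

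FPKM without counts give no depth. For the genes near 0.5 FPKM, Slc16a8 and Ldhd, precision was judged from the spread of 3 libraries a group. The limma intervals also draw on the variance of other genes of similar level.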

Other observations

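Across the 6 libraries, the genes most like the leading member of each role were named by the Pearson correlation of log2(FPKM + 0.1) among 14988 genes that have a symbol and average 1 FPKM or more. These values are a description over 6 points that share library and tissue makeup. For Ldhc they were AABR07072283.1 (0.9996), Metazoa_SRP, a signal recognition particle RNA (0.9995), and Dph3 of diphthamide synthesis (0.993), and 204 genes exceeded 0.9. For Slc16a7 they were Pipox, pipecolic acid oxidase (0.993), the splicing factor gene Srsf2 (0.990) and AABR07044962.1 (0.990), and 198 genes exceeded 0.9. For Bsg they were AABR07024648.1 (0.993), Rn60_X_0211.1 (0.991) and the small nucleolar RNA snoU54 (0.989), and 187 genes exceeded 0.9. No other member of the shuttle was among these names.

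The Ldha level summed with that of RGD1562690, an alternative added after seeing the data, had a log2 fold change of 0.04 between the groups (adjusted p = 0.945 in limma).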
